A study of Homo sapiens with 1 sample.

Results

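To describe how accessible the classical hypoxia target genes were in control cells of the study, the ATAC-seq peaks around CA9, CA12, NDRG1, BNIP3, EGLN3, LOX, CXCR4, DDIT4, P4HA1 and STC2 were examined. These 10 genes were compared with the 20033 protein-coding genes of the annotation. A peak belonged to a gene's locus when its summit, the highest point of the peak, lay inside the gene record or within 50 kb of either end. This gave 125 of the 88615 peaks on the primary chromosomes of hg38. The cells were 786-O, a human cell line established from a clear cell carcinoma of the kidney, transduced with an empty vector and carrying no DPF3 construct. ATAC-seq uses the Tn5 transposase to place sequencing adapters in open DNA. There was 1 library without a replicate, so no test between groups could be made, and all values describe this library alone. The cells with DPF3a overexpression are not analysed here.

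Hypoxia-inducible factors are made of an oxygen-labile α subunit, HIF1A or EPAS1 (also called HIF-2α), and the constant subunit ARNT. In normal oxygen, prolyl hydroxylases such as EGLN3 mark the α subunit, and VHL then targets it for degradation. Clear cell tumours usually lose VHL, so that the factor acts without hypoxia. 786-O cells are known to lack functional VHL and to make EPAS1 but no functional HIF1A. The factors bind a short hypoxia response element whose core reads ACGTG or, less often, GCGTG. CA9, BNIP3, P4HA1 and LOX are usually credited to HIF1A, and EGLN3 and CXCR4 to EPAS1 in VHL-null kidney cancer cells. NDRG1, CA12, DDIT4 and STC2 were assigned to neither because they are known to answer to both factors or have no firm assignment.

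Each peak has a fold, which is the read pileup at the summit relative to one background for the whole genome. The folds of the 125 peaks ranged from 5.15 to 155.1 with a median of 10.3, compared with 10.8 over all peaks. Their summit pileups were 9 to 300 reads or fragments, and 44 of them (35.2%) were under 15, compared with 35.7% of all peaks. The 95% intervals given after a fold are exact Poisson intervals of this pileup and cover counting error only. As promoter of a gene, the stretch between 1 kb before and 100 bp after the start of any of its transcripts was taken. Of the 125 summits, 12 were at a promoter of the member and 7 at a promoter of another gene. Inside the members' gene bodies, 43 were in introns and 4 in an exon of the member or of an overlapping gene. In all, 19 of the 125 were at promoters (15.2%), compared with 19.4% of all peaks. The rest were 20 in the bodies of other genes and 39 between genes.

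A promoter peak was found for 8 of the 10 members (80.0%; exact 95% interval, 44.4 to 97.5), while 61.4% of all protein-coding genes had one. CA9 and CA12 were the exceptions. The promoter fold was among the highest 10% of all folds, 35.6 or more, in NDRG1, DDIT4 and P4HA1. These 3 of 10 compare with 19.3% of all protein-coding genes. The median promoter fold was 28.6 in the 8 members and 25.8 in all genes with a promoter peak. The highest peak of the locus reached the highest 10% in 5 of the 10 loci, which is close to the 49.0% of all protein-coding loci. Over single peaks, 10 of the 125 (8.0%; 3.90 to 14.2) were in this class, against 10.1% of all peaks.

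**Figure D1:**
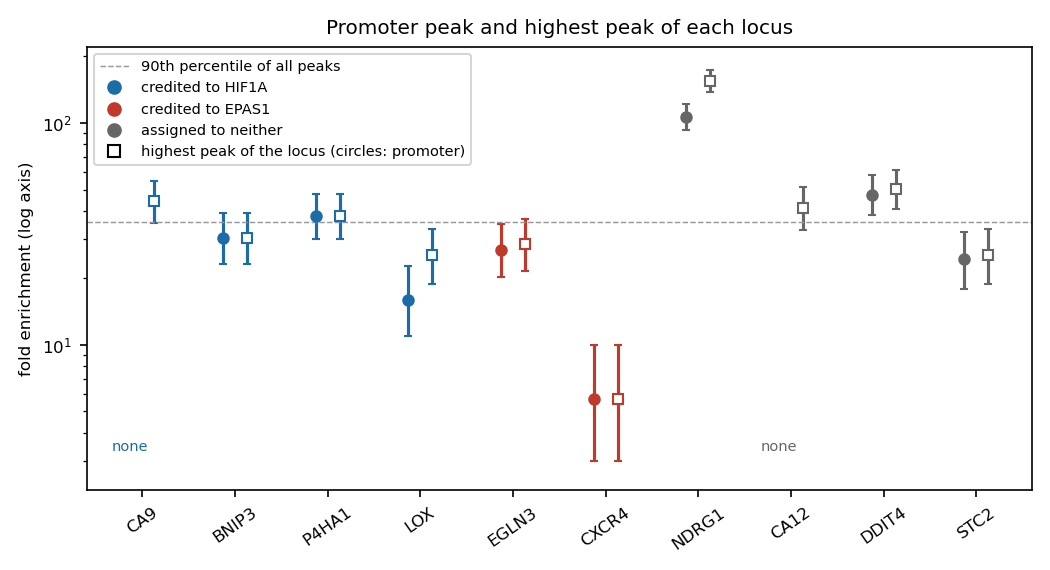
Promoter peak of highest fold (circles) and highest peak of the locus (squares) for each member, as fold enrichment on a log axis, with exact Poisson 95% counting intervals as bars. Blue marks members credited to HIF1A, red EPAS1 and grey neither, and the dashed line is the 90th percentile of all peaks, 35.6. NDRG1 stands above all other members with folds of 106.7 and 155.1, CXCR4 lies lowest at 5.67, and CA9 and CA12 have no promoter peak.

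Among the members credited to HIF1A, CA9 encodes carbonic anhydrase IX, a surface enzyme that helps tumour cells to handle acid. The gene (chr9:35673928-35681159, plus strand) held 0 summits. Its locus nevertheless contained 11 peaks, a density of 10.3 per 100 kb that was higher than in 90.0% of protein-coding loci. The highest of these, with a fold of 44.3 (35.5 to 54.7), lay at the promoter of CCDC107. Others were at the promoters of CD72, with a fold of 16.5, and ARHGEF39, with a fold of 16.0. The summit nearest to the CA9 start was 4283 bp upstream in an exon of ARHGEF39, with a fold of 14.9 (10.1 to 21.4). It was the 1 peak of the 11 for which CA9 was the nearest protein-coding start. Between this peak and the next, near TPM2, 18.6 kb including all of CA9 had no peak. The weakest peak of the list had a pileup of 9, so weaker openness at CA9 was not detectable at this depth.

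BNIP3, a mitochondrial protein that promotes mitophagy and cell death, had a promoter peak at chr10:131980763-131982389. Its fold was 30.4 (23.2 to 39.2), the highest of the 8 peaks of the locus, with the summit 124 bp upstream of the start of the canonical transcript. A peak 4057 bp inside the gene had a fold of 20.6, and the other 6 peaks had folds from 5.15 to 13.9. P4HA1, the catalytic subunit of the prolyl hydroxylase that matures collagen, had 3 peaks in its locus. The promoter peak (chr10:73095621-73097470) had a fold of 38.1 (30.0 to 47.8), and the other peaks, at and beside the NUDT13 promoter, had folds of 16.0, with ACGTG near the summit, and 15.5. No summit lay inside the 89758 bp of the P4HA1 gene record, and 249.0 kb downstream of its promoter peak had no peak.

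LOX, which crosslinks collagen and elastin, had a wide peak of 2158 bp over its start (chr5:122076599-122078756). The summit was 1272 bp downstream of the canonical start and counted through the start of another transcript. Its fold was 16.0 (10.9 to 22.6), and ACGTG lay within 50 bp of the summit. In this locus the highest folds were away from the gene. A summit 20944 bp upstream of the canonical start had a fold of 24.7, and a pair of summits 42941 and 44054 bp upstream, nearest to ZNF474, had folds of 24.7 and 25.2 (18.8 to 33.3). The intervals of the LOX promoter and of the highest peak overlap.

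Among the members credited to EPAS1, EGLN3, the hydroxylase of the feedback loop, had a peak whose summit was 1 bp from its canonical start (chr14:33950340-33951389). Its fold was 26.8 (20.1 to 35.1), higher than 82.8% of all peaks and 92.1% of the peaks within 10 Mb. The gene record of EGLN3 is 538548 bp long because some transcripts start far upstream, and 23 of the 28 peaks of the locus lay inside it. A stretch upstream of the canonical start held the other strong summits. At 84747 bp upstream the fold was 28.3 (21.4 to 36.8), the highest of the locus. At 101053 and 109290 bp upstream it was 25.8 (19.2 to 33.9) at both. The intervals of these summits and of the promoter overlap, so no order between them could be read. Within 10 Mb of EGLN3 the median fold was 9.28 and the 90th percentile 23.8, the lowest among the 10 members.

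CXCR4, the receptor of the chemokine CXCL12 that guides cell migration, had 2 peaks in a locus of 104.8 kb. One had its summit 802 bp downstream of the canonical start (chr2:136117230-136117520), with a fold of 5.67 (2.99 to 9.99) on a pileup of 10. It counted as a promoter peak because the summit was within 1 kb upstream of the start of another transcript, and the nearest CXCR4 start was 390 bp away, outside the peak. The other was 19949 bp upstream with a fold of 5.15 (2.64 to 9.32) on a pileup of 9. The canonical start itself lay in no peak. The density of 1.91 peaks per 100 kb was higher than in 21.1% of protein-coding loci. With P4HA1, CXCR4 was 1 of 2 members with 3 peaks or fewer, and 25.1% of protein-coding loci had so few.

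**Figure D2:**
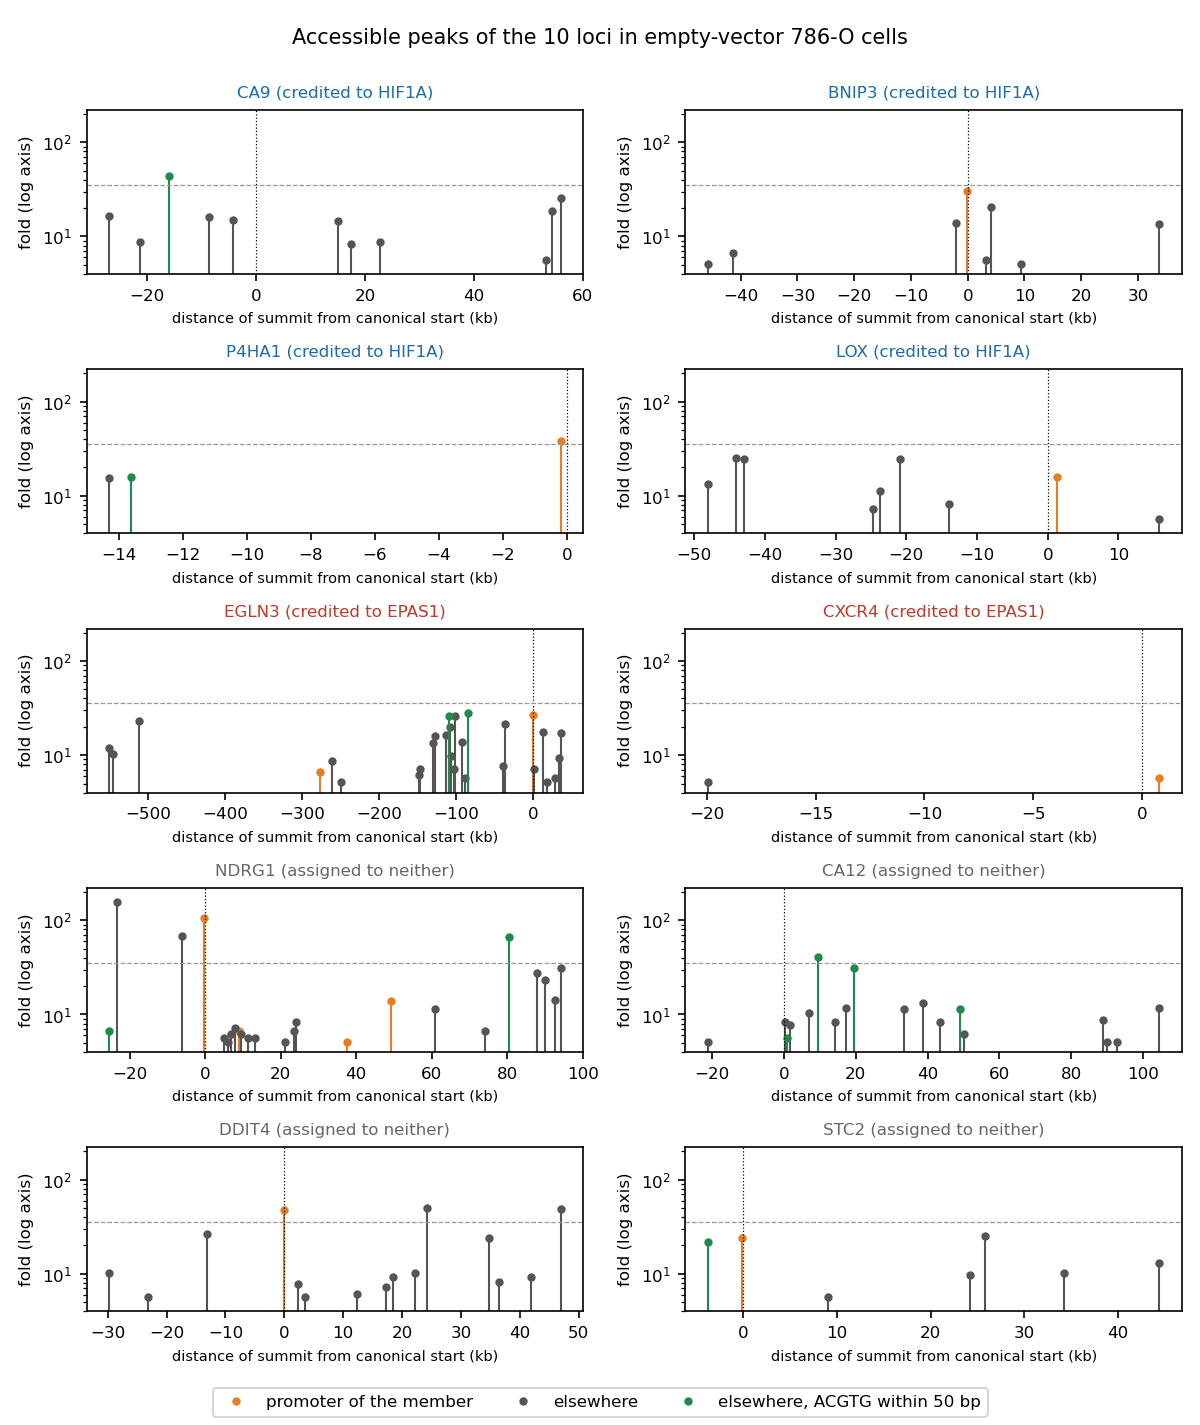
Each panel shows 1 locus, with the distance of every summit from the canonical start in kb (negative is upstream, scale differing between panels) and its fold on a log axis. Orange marks promoters of the member, green other peaks with ACGTG within 50 bp of the summit and grey the rest, and the dashed line is the 90th percentile of all peaks, 35.6. The CA9 start is without a peak, CXCR4 has 2 weak peaks, and NDRG1 has 4 peaks above the line.

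ACGTG lay within 50 bp of 13 of the 125 summits, where 7.04% of all summits had it. For 11 of them the nearest protein-coding start was the member's, and the other 2 were at the promoters of CCDC107 and NUDT13. The sequences below show the element in 6 of the 11, at BNIP3, EGLN3, STC2 and the strongest introns of CA12, and in the CA9 promoter, which had no peak. The sites not printed are 2 weaker introns of CA12, the LOX promoter and 2 sites near NDRG1. They are from hg38, in the direction of the gene, with ACGTG or its complement CACGT in capitals. Each accessible site is 101 bases centred on the summit. The CA9 stretch is the 30 bases before its canonical start, chr9:35673898-35673927, and the element ends 13 bases before the start. The BNIP3 promoter window is chr10:131981997-131982097. The windows at the strongest CA12 introns are chr15:63372461-63372561 and chr15:63362393-63362493. Those upstream of EGLN3 are chr14:34035771-34035871 and chr14:34060314-34060414, and that upstream of STC2 is chr5:173332108-173332208. The matches at BNIP3 and STC2 read CACGTG, so that the element is present on both strands and the match is also a MYC-type E-box.
CA9 before the start: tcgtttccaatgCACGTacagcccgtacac
BNIP3 promoter: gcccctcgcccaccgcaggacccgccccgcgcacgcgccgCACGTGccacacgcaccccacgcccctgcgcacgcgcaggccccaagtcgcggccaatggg
CA12 intron, fold 41.2: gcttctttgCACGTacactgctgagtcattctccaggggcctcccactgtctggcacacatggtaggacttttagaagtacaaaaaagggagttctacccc
CA12 intron, fold 30.9: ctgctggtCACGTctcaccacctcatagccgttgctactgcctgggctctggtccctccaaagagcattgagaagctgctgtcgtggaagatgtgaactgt
EGLN3 upstream, fold 28.3: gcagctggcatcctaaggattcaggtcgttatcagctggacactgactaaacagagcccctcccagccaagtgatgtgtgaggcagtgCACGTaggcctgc
EGLN3 upstream, fold 25.8: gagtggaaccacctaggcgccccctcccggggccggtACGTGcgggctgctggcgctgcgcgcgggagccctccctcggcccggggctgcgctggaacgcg
STC2 upstream, fold 21.6: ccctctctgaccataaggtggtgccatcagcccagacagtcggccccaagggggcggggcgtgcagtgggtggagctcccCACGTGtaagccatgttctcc

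CA12, a carbonic anhydrase of the cell surface that is related to CA9, showed another arrangement. Its canonical start lay inside a peak (chr15:63381414-63382228), but the summit was 139 bp downstream in an exon and so fell outside the promoter as defined. The fold there was 8.24 (4.84 to 13.3). The highest folds were inside the gene (chr15:63321378-63381846). A summit 9335 bp downstream of the start had a fold of 41.2 (32.7 to 51.2), and one 19403 bp downstream had a fold of 30.9 (23.7 to 39.7). Both intervals lay above that of the start. Introns of CA12 held 12 of the 18 peaks of the locus, and the windows of 4 of them contained ACGTG. Besides the strongest pair these were summits 757 and 48922 bp downstream of the start, with folds of 5.67 and 11.3. The window with the fold of 41.2 also contained the AP-1 site TGAGTCA, printed above in lower case.

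DDIT4, an inhibitor of mTORC1 signalling that is induced by stress, had 15 peaks in a locus of 102.1 kb. Its density of 14.7 per 100 kb was higher than in 98.1% of protein-coding loci and the highest of the 10 members. The promoter peak spanned 2953 bp (chr10:72272688-72275640), and its fold was 47.4 (38.3 to 58.1). It also lay at the promoter of the unnamed gene ENSG00000289506. Beyond the gene, intergenic summits 24194 and 46916 bp downstream of the start had folds of 50.5 (41.0 to 61.5) and 49.0 (39.7 to 59.8). The intervals of these 3 peaks overlap. The other 12 peaks had folds from 5.67 to 26.3.

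STC2, a secreted glycoprotein that restrains growth factor release, had a promoter peak of 3345 bp (chr5:173326432-173329776), wider than 99.7% of all peaks. Its fold was 24.2 (17.9 to 32.1). A summit 3744 bp upstream of the start had a fold of 21.6 (15.7 to 29.2) and contained the E-box form of the element. The highest fold of the 7 peaks was 25.2 (18.8 to 33.3) at a summit 25765 bp downstream of the start. These intervals overlap.

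The locus of NDRG1, a differentiation and stress gene that is strongly induced by hypoxia, held the strongest peaks. The gene lies on chromosome 8 between 133237175 and 133302022, minus strand, and its locus had 24 peaks, or 14.6 per 100 kb. An intergenic peak (133319733 to 133321382), whose summit was 23469 bp upstream of the canonical start, had a fold of 155.1 (138.1 to 173.6). It ranked 1 among all 88615 peaks, and its nearest protein-coding start was another NDRG1 start, 18699 bp away. The promoter peak (133293639 to 133298668) spanned 5030 bp, wider than 99.96% of all peaks, and had a fold of 106.7 (92.7 to 122.2), which ranked 65. A summit 6113 bp upstream of the canonical start had a fold of 68.0 (57.0 to 80.6). In an intron of CCN4, 80472 bp downstream, another reached 66.5 (55.5 to 78.9) and had ACGTG within 50 bp of its summit. The element was also at a weak summit 25464 bp upstream, with a fold of 6.70 (3.71 to 11.3). The interval of the highest peak overlapped none of the others. The intergenic peak and the promoter peak were the members' only 2 peaks among the highest 1% of folds, which held 1.02% of all peaks. A peak of that class was thus found in 1 of the 10 loci, and in 6.69% of protein-coding loci.

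The other 20 peaks of the NDRG1 locus were weaker, with folds from 5.15 to 31.4, so that the median of the locus was only 6.96. Most of the gene body itself was of this kind. The surroundings of NDRG1 had high folds too. Among the 1001 other peaks within 10 Mb the 90th percentile was 51.5, compared with 35.6 over all peaks and with at most 43.4 around the other members. Set against these neighbours, the intergenic peak was still the highest and the promoter peak was above 99.4%. The peaks with folds of 68.0 and 66.5 were above 94.3% and 93.9%. The part of the surroundings in these folds was not tested. Just outside the limit of 50 kb, further summits near NDRG1 had folds of 78.8 and 62.9. Over all loci, 5 peaks lay in the last 5 kb inside the limit, with folds from 5.15 to 25.8, and 7 in the first 5 kb outside it, with folds from 5.15 to 78.8.

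**Figure D3:**
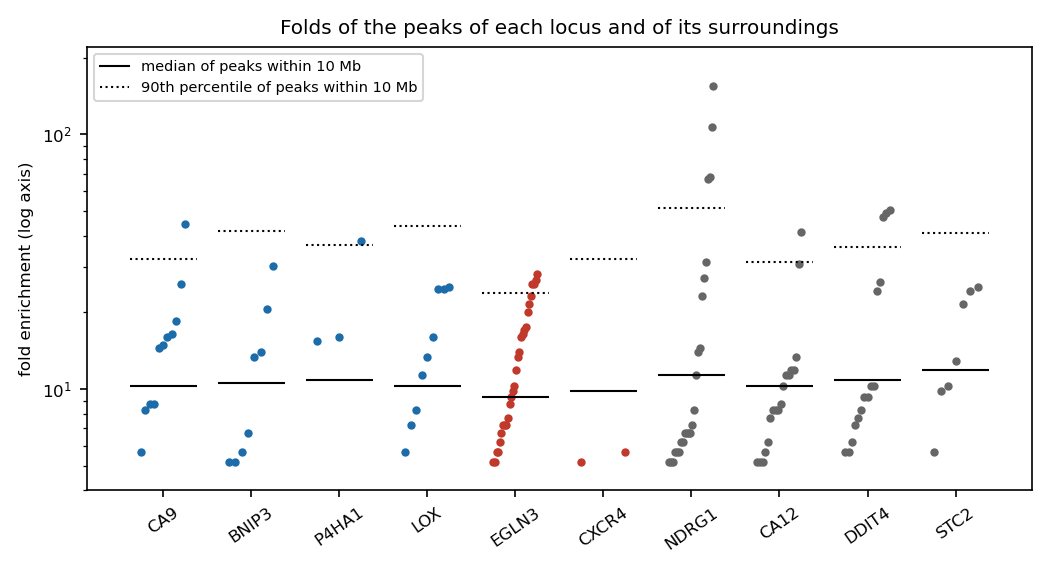
Folds of the 125 peaks by locus on a log axis, ordered from low to high within each locus, with the median (solid) and the 90th percentile (dotted) of the other peaks within 10 Mb. Blue marks members credited to HIF1A, red those credited to EPAS1 and grey those assigned to neither. NDRG1 has 4 peaks above its dotted line although that line, at 51.5, is the highest of the 10.

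To compare the loci as a whole, peaks were counted per 100 kb. The members had a median of 7.41 and the protein-coding loci one of 4.51. Of the 10 members, 7 were above this median, and EGLN3 (4.38), CXCR4 (1.91) and P4HA1 (1.58) were below it. The place of EGLN3 depended on its long gene record. By its canonical transcript, an alternative chosen after the data were seen, it had 9 peaks in 126.8 kb, or 7.10 per 100 kb, and 8 of the 10 members were above the median. Its highest fold was then that of the promoter, 26.8. The other members and all protein-coding genes kept their full gene records in this comparison. A locus also contains other genes, so the count was repeated with only those peaks whose nearest protein-coding start was the member's, which was likewise chosen after the data were seen. This left 92 of the 125 peaks. The members' median percentile among all protein-coding genes moved from 75.4 to 90.5, whereas CA9 fell from 90.0 to 38.9. The median over all protein-coding loci fell from 4.51 to 1.44 per 100 kb. CXCR4, with the same 2 peaks, rose from a percentile of 21.1 to 62.2. The part of the spacing between genes in these shifts was not tested.

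**Figure D4:**
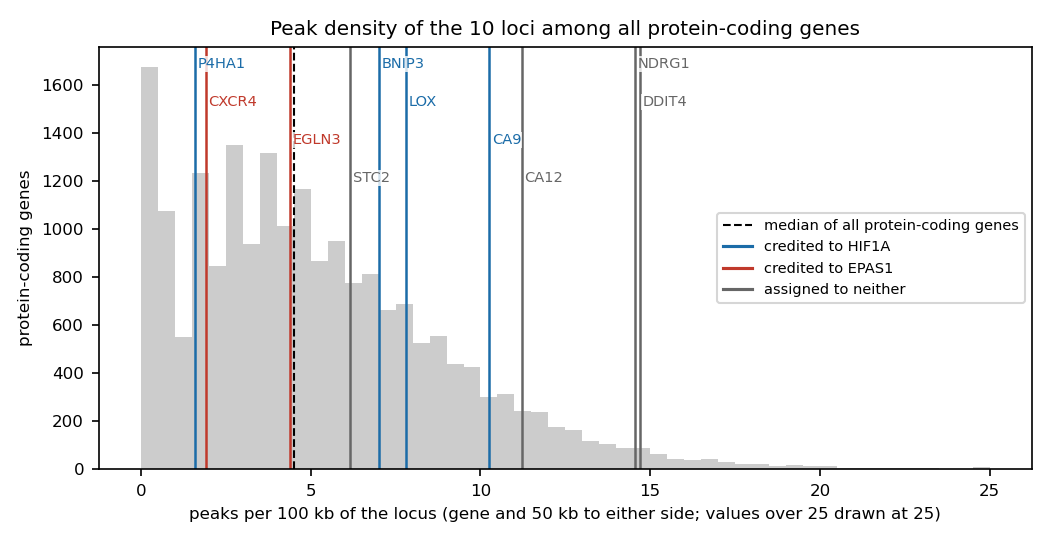
Histogram of peaks per 100 kb over the loci of 20033 protein-coding genes, with the median of 4.51 as a dashed line and each member as a coloured line. The members spread from 1.58 at P4HA1 to 14.7 at DDIT4, with 7 of the 10 above the median when loci follow the gene records.

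The members credited to HIF1A were then set beside those credited to EPAS1. The first group had 31 peaks in 526.5 kb, or 5.89 per 100 kb, and the second 30 in 743.4 kb, or 4.04 per 100 kb. By member, the densities ranged from 1.58 to 10.3 in the first and were 1.91 and 4.38 in the second, so the ranges overlap. Peaks whose nearest protein-coding start was the member's numbered 1 of 11 at CA9, 5 of 8 at BNIP3, 6 of 9 at LOX and 1 of 3 at P4HA1. At EGLN3 they numbered 26 of 28 and at CXCR4 2 of 2. By these peaks alone, the first group had the lower density. Promoter folds were 16.0, 30.4 and 38.1 in LOX, BNIP3 and P4HA1, with none in CA9. They were 5.67 and 26.8 in CXCR4 and EGLN3. These also overlap, and the lowest promoter values of either group were those of CA9 and CXCR4. The highest fold of the locus was between 25.2 and 44.3 in the first group, where the 44.3 is the CCDC107 promoter beside CA9, and was 5.67 and 28.3 in the second. Against the other peaks within 10 Mb, the order differed. There the promoter peak of EGLN3 was above 92.1%, and those of P4HA1, BNIP3, LOX and CXCR4 above 90.3%, 82.6%, 64.0% and 7.46%. The highest peak was above 93.1% at EGLN3 and 7.46% at CXCR4, and above 77.7% to 95.5% in the first group. The part of the surroundings in the group values was not tested. Core elements were near 7 of the 31 summits (22.6%) and 4 of the 30 (13.3%), compared with 16.0% of all summits. In the first group, only the summits at the BNIP3 and LOX promoters among these were nearest to a member's start. The rest were nearest to CCDC107, TPM2, ZNF474 and NUDT13. In the second group, only the summit at the SPTSSA promoter was nearest to another gene. With so few genes, each group depended on single members. When DDIT4 and STC2 were added to the first group and NDRG1 and CA12 to the second, the densities were 7.14 and 6.74 per 100 kb, and the median promoter folds 30.4 and 26.8. Core elements were then near 11 of 53 summits and 15 of 72, which is 20.8% in both groups.

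To ask whether the response element marked these loci, both strands of the 101 bases centred on each summit were searched for both cores. The E-box form seen at BNIP3 also counted. The 13 summits with the first core, ACGTG, were 10.4% of the 125 (5.65 to 17.1), against 7.04% of all summits. GCGTG was found at 17 (13.6%; 8.13 to 20.9), against 9.82% of all summits. Either was present at 26 (20.8%; 14.1 to 29.0), against 16.0%. The AP-1 site, TGACTCA or TGAGTCA, was present at 18 (14.4%; 8.76 to 21.8), against 15.7%. In each case the interval of the members included the share of all peaks. The 19 summits at promoters were 12 of members and 7 of other genes. Of the 19, 9 had either core (47.4%; 24.4 to 71.1), where 26.6% of all promoter summits had one. The 9 include summits at the promoters of CCDC107, APH1B, SPTSSA and NUDT13, which are not members. Away from promoters, 17 of 106 had either core (16.0%; 9.63 to 24.4), against 13.4%. Peaks of 1 locus share their surroundings and are not replicates. In the canonical promoters of all genes, from 1 kb upstream to 100 bp downstream, ACGTG was present in 54.5%, and in 5 of the 10 members. CA9, BNIP3, LOX, DDIT4 and P4HA1 had it. The strongest peak, upstream of NDRG1, had neither core within 50 bp of its summit and no ACGTG anywhere in its 1650 bp.

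**Figure D5:**
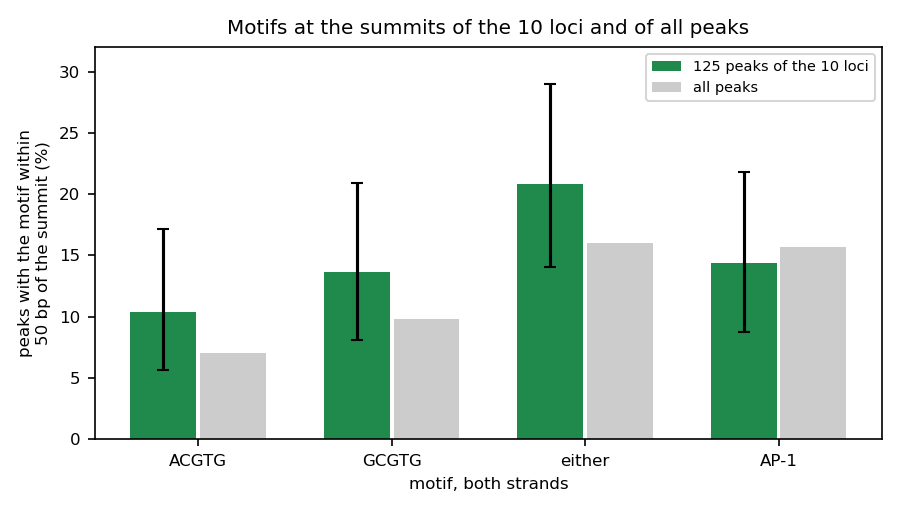
Share of summits, in percent, with each core element, either of them, or the AP-1 site within 50 bp, for the 125 peaks of the 10 loci (green, with exact 95% intervals) and for all 88615 peaks (grey). For the either-core pair the values are 20.8% and 16.0%, and each interval includes the grey bar beside it.

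As a wider view of the pathway, 19 other hypoxia-inducible genes were looked at: ADM, ANGPTL4, ANKRD37, KDM3A, BHLHE40, BNIP3L, PLOD2, P4HA2, LOXL2, ERO1A, INSIG2, MXI1, PDK1, SLC2A1, PFKFB3, PFKFB4, TGFA, VEGFA and CCND1. Of these, 18 had a promoter peak (94.7%; 74.0 to 99.9), beside the 61.4% of all protein-coding genes. Their median promoter fold was 38.4. The highest were 69.0 (57.9 to 81.7) at PLOD2, which hydroxylates collagen lysines, 66.0 (55.1 to 78.4) at INSIG2, a regulator of sterol synthesis, and 54.6 (44.8 to 66.0) at the repressor BHLHE40. ANGPTL4, a secreted inhibitor of lipoprotein lipase, was the exception, but a summit with a fold of 10.8 lay 144 bp from one of its starts. The same class of strong peaks, the highest 10%, was reached in 15 of the 19 loci, where 49.0% of protein-coding loci reached it. A longer locus has more room for such a peak, and the loci were not matched for length. The intervals of the folds cover counting error only. That of the 94.7% is an exact interval of a share, over genes that were chosen and not drawn at random. No test was made on this list.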

How the data were processed

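Peaks were analysed from 1 ATAC-seq library of 786-O cells with an empty vector. According to the study's methods and the submitters' processing notes, the authors used fastp to trim the reads and Bowtie2 2.3.4.3 for alignment to hg38, removed reads of low mapping quality, mitochondrial reads and duplicates, and called peaks with MACS2 2.2.6 on this library alone against a genome-wide background. A shift of reads to the Tn5 cut site is not given in the sources used here. The names of the peaks are marked as wild type, but the library was treated as empty vector, as labelled. The deposited ratio is the fold of the summit pileup over this background, with 1 added to both. The deposited −log10 p-values and q-values and the deposited score derive from the same pileup. The deposited summit position was used to place each peak.

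From these values, a background pileup of 0.941 was recovered, with which all pileups were whole numbers to within 0.000105. The total number of reads is unknown. All 88676 peaks lay within the lengths of the hg38 reference, and 88615 were on the 24 primary chromosomes. Genes were those of GENCODE release 44. Shares have exact Clopper-Pearson 95% intervals. Percentiles are the share of peaks, or genes, with a lower value. The members, the lists and the assignment to HIF1A or EPAS1 were chosen with earlier results of these data known. All 10 members were described by their promoter peak and highest peak. Peaks of the highest 10% or with ACGTG near the summit could also be described, and some of the other summits were added after their values were seen. Of the other pathway genes, those without a promoter peak and the 3 of highest promoter fold were given with values, and 1 gene of that list is not reported here. Alternatives were other score minimums, windows, promoters, motif widths and assignments. Functions were tested on simulated data. The work was done in Python 3.11.15 (scipy 1.17.1, numpy 2.4.6, pandas 2.3.3), and plots were drawn with matplotlib 3.10.9.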

Additional observations from a re-analysis of the deposited data

How the results depend on the processing

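No paired analysis was possible because the data are from a single library. CA9 had no promoter peak under any of the 7 promoter and score alternatives. CA12 gained one with a promoter of 1 kb or 2.5 kb to both sides, of 200 bp downstream, or by overlap of the interval, for 9 members in all. CXCR4 lost its peak with a score above 100 or 200, for 7 members, and CXCR4 and LOX lost theirs with the canonical start alone, for 6 members. The share of all protein-coding genes was not computed under these alternatives. The 61.4% holds for the main definition only, so these counts cannot be set against it. With a score above 200, there were 56 peaks in the loci, a median of 3.51 per 100 kb beside 2.11 over all loci, and 3.61 (HIF1A-credited) and 1.88 (EPAS1-credited) per 100 kb. A score minimum leaves fewer peaks by construction. With a score above 100, the EPAS1-credited density was 2.56. With either score minimum, the EPAS1-credited median promoter fold was 26.8, since only EGLN3 remained. The EPAS1-credited median percentile of the highest fold was 46.7 as first computed over both members. With the minimums it was 77.0 and 65.8, from EGLN3 alone, which was at 84.3 without a minimum. The HIF1A-credited median percentile, 88.8 as first computed, was 75.6 with a score above 200. These percentiles are among the peaks that pass the minimum, so that of an unchanged fold falls by construction. Under the broad assignment the EPAS1-credited members had 6.74 peaks per 100 kb, a median promoter fold of 26.8 and a median percentile of 88.6. With a window of 100 kb the median highest fold of the loci was 50.8. Counting only peaks nearest to the member's start gave a median of 4.79 per 100 kb, beside 1.44 over all loci, and a median percentile of 90.5. The share of summits with a response element was 10.4% with ACGTG alone, 33.6% within 100 bp and 59.2% anywhere in the peak, beside 7.04%, 27.9% and 52.2% of all peaks. Of the other single values, 52 moved and 157 did not, by limits of 1.5 times for counts, the counting interval for folds and 10 points for percentiles. The alternatives within 10 Mb, for EGLN3 by its canonical transcript, without NDRG1, with 200 bp downstream and with the nearest peaks for densities were chosen after the data were seen.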
